A study of Mus musculus with 90 samples.

Results

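Livers with knockdown (KD) of protein kinase A (PKA) were compared with livers with knockdown of Epac2, so that the pair of proteins that carry a cAMP signal were set against each other. The comparison used the 10 libraries labelled PKA KD and the 10 labelled Epac2 KD, 20 of the 90 liver libraries of the series, chosen by their labels alone. Both groups belong to experiment 1, in which the knockdown mice received AAV8 carrying a short hairpin RNA (shRNA) against the glucagon receptor, GCGR, or against Gnas, PKA or Epac2, and which also has a Control group. The 10 Control libraries of the same experiment are given beside them, and the PKA KD label names no subunit. In experiment 2, which shares no library with experiment 1, 10 libraries of Prkar1a KD + Control mAb and 10 of Control AAV + Control mAb are set alongside as the opposite manipulation of PKA. The labels give no strain, age, sex, diet, vector dose or hairpin sequence, and they do not say that each library came from a separate mouse, so the tests cover only variation among these libraries. AAV8 reaches mainly hepatocytes, and other liver cells may keep their transcripts. Each knockdown group is known here by 1 treatment label, so the effect of the named target's knockdown and any other effect of its hairpin cannot be told apart.

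Glucagon binds its receptor on hepatocytes, the stimulatory G protein activates adenylyl cyclase, and cAMP rises. PKA is a tetramer in which regulatory subunits hold the catalytic subunits, encoded chiefly by Prkaca and Prkacb, inactive until cAMP binds. The freed kinase phosphorylates CREB and other factors, and in the fasted liver this is known to raise gluconeogenesis and amino acid breakdown. Epac proteins are the other main cAMP sensors: Epac2, encoded by Rapgef4, and Epac1, encoded by Rapgef3, are exchange factors that load the small GTPase Rap1 with GTP.

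Total counts were 23.11 to 33.71 M per library in PKA KD and 20.81 to 27.68 M in Epac2 KD. Of 13574 genes tested with edgeR, 4850 were called between the groups at an adjusted p under 0.05, a share of 35.7%, of which 2496 (18.4%) were higher and 2354 (17.3%) lower in PKA KD. With a change of at least 1.5-fold in addition, 904 genes (6.66%) were higher and 560 (4.13%) lower. In 296 genes (2.18%) every PKA KD library lay above every Epac2 KD library, and in 313 (2.31%) below. Against Control, 32.4% of genes were called for PKA KD and 4.56% for Epac2 KD. The Control mean lay nearer to the Epac2 KD mean for 80.0% of the called genes, against 66.5% of all tested genes. It lay between the means of the knockdown groups for 65.4% of the called genes, against 44.2% of all tested genes. Genes were called for a gap between those means, which by itself raises the share that lies between. The median fold change of all tested genes was 0.0047 on the log2 scale. PKA KD replicates 3 and 5 kept the most Prkaca mRNA, and replicate 5 and Epac2 KD replicate 7 had the lowest median rank correlation with their own groups, 0.968 and 0.975. For genes given with their levels below, the value without such a library is added where leaving it out ended or made a call or moved the fold change by over 1.5 times. Mitochondrial ribosomal RNA took 0.0682% ± 0.0351 (SD, n = 10) of the counts in PKA KD and 0.186% ± 0.0355 in Epac2 KD (two-sided permutation test, p = 4e-05). In Control it took 0.164% ± 0.0213, nearer to Epac2 KD. Mitochondrially encoded mRNAs took 10.2% ± 2.26 in PKA KD and 13.7% ± 4.39 in Epac2 KD (two-sided permutation test, p = 0.0198), and 11.7% ± 2.09 in Control. Epac2 KD replicate 5 was at 24.6%, and the other Epac2 KD libraries at 9.8% to 16.7%, so that difference rests in part on 1 library. The part of these shares in the results below was not tested. Fold changes are log2 values, PKA KD minus Epac2 KD, ± SE with n = 10 per group, and levels are library-size-scaled counts (CPM, with TMM factors), which do not compare one gene with another.

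The PKA KD libraries were low in both main PKA catalytic subunit mRNAs, and the Epac2 KD libraries in Rapgef4. Prkaca was at 7.34 to 23.4 CPM (median 9.44) in PKA KD, 75.4 to 120.4 (89.0) in Epac2 KD and 85.6 to 106.9 (95.7) in Control. The PKA KD libraries lay below all libraries of both other groups, and the difference was -3.02 ± 0.131 (edgeR, adjusted p = 1.79e-24). Prkacb, the second catalytic subunit, was at 6.73 to 13.8 CPM (median 8.94) in PKA KD and 36.8 to 49.4 (42.5) in Epac2 KD. Its groups did not overlap either, with a difference of -2.16 ± 0.0861 (edgeR, adjusted p = 8.22e-26). Rapgef4 was at 54.6 to 121.3 CPM (median 89.1) in PKA KD, 5.19 to 14.5 (8.82) in Epac2 KD and 68.7 to 121.8 (89.0) in Control. Here the Epac2 KD libraries were the low ones, and the difference was 3.29 ± 0.176 (edgeR, adjusted p = 1.37e-20). Against Control, Rapgef4 differed by 0.02 in PKA KD and Prkaca by -0.03 in Epac2 KD, and neither passed the test. Rapgef3, which encodes Epac1, was at 2.91 ± 0.343 CPM (SD) in PKA KD and 3.59 ± 0.9 in Epac2 KD, and its difference of -0.30 ± 0.168 did not pass (edgeR, adjusted p = 0.162).

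**Figure D1:**
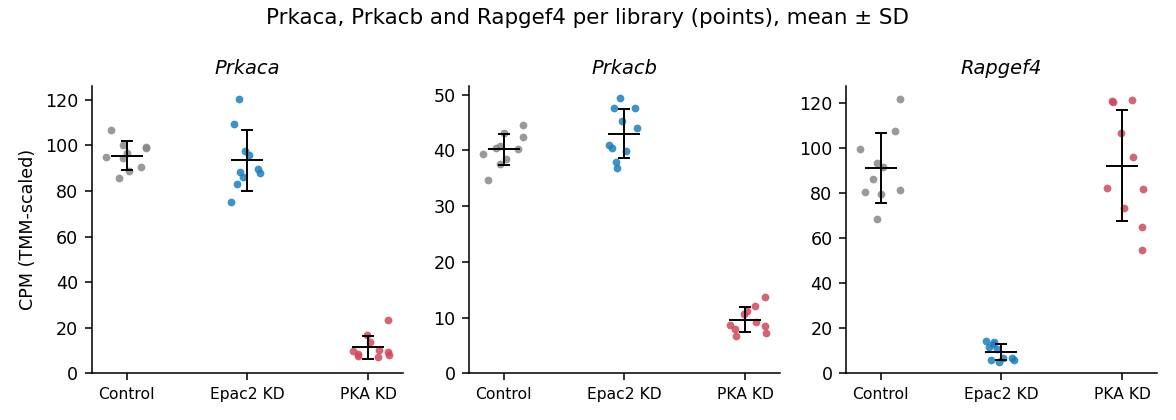
TMM-scaled CPM of Prkaca, Prkacb and Rapgef4 in each library (points) of Control, Epac2 KD and PKA KD, with mean and SD (bars), n = 10 per group. Prkaca and Prkacb are low only in the PKA KD libraries shown and Rapgef4 only in the Epac2 KD libraries, with no overlap.

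Among the genes upstream of both proteins, few were called. Of 12 tested genes of the receptor, its G proteins and adenylyl cyclases, 1 (8.33%) was higher and 0 lower in PKA KD. Their median was -0.05, and of all tested genes 18.4% were higher and 17.3% lower. The 1 was Gnai3, an inhibitory G protein subunit, at 0.45 ± 0.0514 (edgeR, adjusted p = 4.76e-10). It was at 40.3 to 51.6 CPM in PKA KD, 26.7 to 37.3 in Epac2 KD and 41.1 to 48.9 in Control. The Epac2 KD libraries were thus the ones that stood apart. Gcgr differed by -0.22 ± 0.0969 (edgeR, adjusted p = 0.0734) and Gnas, the stimulatory G protein, by -0.13 ± 0.102 (edgeR, adjusted p = 0.353), and neither passed the test. Of 16 PKA subunits, inhibitors and anchors, 6 (37.5%) were lower and 0 higher. Besides the catalytic subunits these included the mitochondrial anchor Akap1 at -0.66 and the regulatory subunit Prkar1a at -0.17 (edgeR, adjusted p = 0.000173). Prkar1a was at 98.4 to 118.8 CPM in PKA KD, 105.2 to 130 in Epac2 KD and 123.1 to 133.5 in Control, so the PKA KD libraries lay below the Control range. Of 14 Epac and Rap genes, 5 (35.7%) were higher and 3 (21.4%) lower, with Rap2b at 0.62 beside Rapgef4. The shares of these lists count Prkaca and Prkacb, low in PKA KD, and Rapgef4, low in Epac2 KD, so they partly restate the knockdowns.

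Phosphodiesterases shut off the cAMP signal, and CREB with its coactivators and kinases relays it. Of 11 phosphodiesterases, 2 (18.2%) were higher and 3 (27.3%) lower in PKA KD, beside 18.4% and 17.3% of all tested genes. Pde4b, which breaks down cAMP and is itself induced by it, was at 8.73 to 14.6 CPM (median 11.4) in PKA KD and 13.1 to 31.4 (22.5) in Epac2 KD. The ranges overlapped at their ends, and the difference was -1.01 ± 0.168 (edgeR, adjusted p = 3.09e-06). Of 20 genes on a list of CREB, its coactivators, their kinases and response genes, 3 (15%) were lower, 2 (10%) higher and 15 not called, with a median of -0.07. The 3 were Lpin1, a phosphatidate phosphatase, at -1.38 ± 0.235, the orphan receptor Nr4a2 at -1.02 ± 0.299 and Crem at -0.39 ± 0.128. Nr4a2 stood near the floor of the assay, at 0.573 ± 0.363 CPM (SD) in PKA KD and 1.16 ± 0.625 in Epac2 KD. Ppargc1a, the coactivator of gluconeogenesis, was higher in PKA KD, at 12.6 ± 2.81 CPM (SD) against 9.66 ± 2.74, a difference of 0.38 ± 0.141 (edgeR, adjusted p = 0.0304). That call was lost without Epac2 KD replicate 7 (edgeR, adjusted p = 0.0641) and with only the 2 groups in the fit (edgeR, adjusted p = 0.063).

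Of 17 gluconeogenic genes, 9 (52.9%) were lower in PKA KD than in Epac2 KD, beside 17.3% of all tested genes, 3 were higher and 5 were not called, with a median of -0.22. Pck1, phosphoenolpyruvate carboxykinase, was at 340.5 to 968.7 CPM (median 563.5) in PKA KD, 653.0 to 2280 (1209) in Epac2 KD and 714.1 to 1873 (1226) in Control. The knockdown groups overlapped by a few libraries, and the difference was -1.19 ± 0.195 (edgeR, adjusted p = 2.12e-06). G6pc, which releases free glucose, was at 56.5 to 172.5 CPM (median 86.4) in PKA KD and 135.5 to 495.1 (225.7) in Epac2 KD, a difference of -1.39 ± 0.242 (edgeR, adjusted p = 7.4e-06). Fbp1, fructose-bisphosphatase, did not overlap: 330.8 to 902.7 CPM in PKA KD and 923.0 to 1327 in Epac2 KD, with a difference of -1.09 ± 0.122 (edgeR, adjusted p = 2.94e-10). Got1, Ldha, Gpd2, Slc25a10, Slc37a4 and Mdh2 were the other members that were lower. The 3 higher members were Mdh1, Ldhb and Got2. Mdh1, the cytosolic malate dehydrogenase, was moved mainly in the Epac2 KD livers: it was at 508.3 ± 34.1 CPM (SD) in PKA KD, 215.5 ± 20.8 in Epac2 KD and 415.1 ± 31.2 in Control, and no Epac2 KD library reached the other groups.

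The cAMP response element TGACGTCA, and its short forms TGACG and CGTCA that it also contains, were searched on both strands of RefSeq promoter windows from 250 bases before to 50 after each start (GRCm38.p6). Of 10781 tested genes with a window, 3.4% held the full element and 34.2% a short or full form. The full element was in 4.81% of the genes lower in PKA KD and 2.98% of those higher, and the short form in 37.9% and 32.6%. Among all 32851 windows of the table the shares were 1.79% and 20.8%. Of the 9 gluconeogenic genes that were lower, 2, Ldha and Mdh2, held the full element and 4 a short or full form. Of 22 amino acid catabolism genes that were lower and had a window, 0 held the full element and 3 a short form. The windows of Pck1, a lower gene long known as a cAMP target, of Pnpla3, a lower lipid gene, and of Meg3, the non-coding RNA with the second largest rise, are shown with the full element, or in Pck1 the short form CGTCA, in capitals. The first base in capitals lies at position -90 in Pck1 (chr2:173152823-173153122, plus strand), -46 in Pnpla3 (chr15:84167566-84167865, plus strand) and -57 in Meg3 (chr12:109540746-109541045, plus strand), counted from the start as 1. No match of either form was in the windows of the lower genes G6pc, Fbp1, Tat, Ass1, Me1 and Plin4. Nor was any in those of Phyh, Crot, Acaa1b, Cfd, Lpin1, Ugp2, Slc25a22, Saa1, Saa2, Mup9 and Mup18. The lower genes Oat, Insig1, Pde4b, Nr4a2, Ppara, Prkaca and Prkacb each held a short form in a window, and Prkar1a the full element. Of the higher genes, Ly6c1, Rec8, Rian, Rapgef4, Mdh1, Bhmt, Cept1, Ddah1, Snhg11, Mup21 and Ifit1 held neither form. Pls1, Rsad2 and Ppargc1a held a short form. A second window of Meg3 held neither form. A match of letters is a description and not a binding site.
Pck1: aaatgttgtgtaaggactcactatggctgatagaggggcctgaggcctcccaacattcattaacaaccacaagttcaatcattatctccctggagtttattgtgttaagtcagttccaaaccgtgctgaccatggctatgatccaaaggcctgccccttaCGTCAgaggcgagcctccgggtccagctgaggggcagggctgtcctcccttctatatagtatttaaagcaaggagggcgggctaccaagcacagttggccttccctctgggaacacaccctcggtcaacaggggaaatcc
Pnpla3: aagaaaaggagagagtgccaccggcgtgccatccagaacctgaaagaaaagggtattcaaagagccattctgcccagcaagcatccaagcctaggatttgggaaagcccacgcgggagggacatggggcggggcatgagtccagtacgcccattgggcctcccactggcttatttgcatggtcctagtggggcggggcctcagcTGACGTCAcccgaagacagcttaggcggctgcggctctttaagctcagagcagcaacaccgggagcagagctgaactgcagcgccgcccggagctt
Meg3: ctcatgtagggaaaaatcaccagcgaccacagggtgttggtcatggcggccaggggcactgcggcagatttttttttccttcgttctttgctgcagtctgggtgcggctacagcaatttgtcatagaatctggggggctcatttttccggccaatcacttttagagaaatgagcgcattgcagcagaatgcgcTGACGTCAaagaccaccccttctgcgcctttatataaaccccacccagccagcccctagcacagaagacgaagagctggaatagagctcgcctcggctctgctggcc

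Of 53 catabolic genes tested, 28 were lower and 2 higher in PKA KD, a share of 52.8% lower beside 17.3% of all tested genes, and the median was -0.27. Against Control, 26 of the 53 were lower with PKA KD and 1 with Epac2 KD, beside 14.8% and 2.74% of all tested genes, in comparisons that share their control libraries. Oat, ornithine aminotransferase, was at 209.3 to 561.0 CPM (median 359.7) in PKA KD, 786.7 to 2262 (1055) in Epac2 KD and 602.4 to 1227 (850.6) in Control. The PKA KD libraries lay below every library of both other groups, and the difference was -1.66 ± 0.197 (edgeR, adjusted p = 1.7e-09). Tat, tyrosine aminotransferase, was at 184.2 to 629.7 CPM (median 332.7) in PKA KD and 600.2 to 2318 (850.3) in Epac2 KD, a difference of -1.43 ± 0.212 (edgeR, adjusted p = 2.94e-07). One PKA KD library, replicate 5, reached into the Epac2 KD range. Gls2, the liver glutaminase, differed by -1.29 ± 0.214, with 112.1 ± 64.2 CPM (SD) in PKA KD and 274.2 ± 94.3 in Epac2 KD. PKA KD replicates 3 and 5, at 203.0 and 233.3 CPM, were its 2 highest libraries, and without them and Epac2 KD replicate 7 the difference was -1.72. Sds, serine dehydratase, differed by -1.08 ± 0.277 and Hal, which starts histidine breakdown, by -1.12 ± 0.195. The exceptions were Bhmt, which remethylates homocysteine, at 0.95 ± 0.149, and Dbt, a subunit of the branched-chain ketoacid dehydrogenase, at 1.46 ± 0.108. Dbt was at 76.4 ± 12.5 CPM (SD) in PKA KD, 27.8 ± 5.88 in Epac2 KD and 71.0 ± 10.5 in Control, so that here too the Epac2 KD livers stood apart.

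The urea cycle and the carriers that feed it were partly lower. Of 9 urea cycle genes, 4 (44.4%) were lower (Ass1, Arg1, Slc25a15 and Asl) and 1 (11.1%) higher, the channel Aqp9. Of all tested genes, 17.3% were lower and 18.4% higher. Against Control, 4 (44.4%) of the 9 were lower and 0 higher with PKA KD, beside 14.8% and 17.7% of all tested genes. With Epac2 KD, 0 of the 9 were called, beside 4.56% of all tested genes, in a comparison that shares its control libraries. Arg1, arginase, was at 448.6 to 650.7 CPM (median 527.4) in PKA KD and 817.8 to 1395 (895.0) in Epac2 KD, without overlap, a difference of -0.83 ± 0.0875 (edgeR, adjusted p = 6.21e-11). Ass1, argininosuccinate synthase, differed by -1.09 ± 0.189, with overlapping groups. Cps1, the first enzyme of the cycle, was at 2149 ± 289.5 CPM (SD) in PKA KD and 2481 ± 727.2 in Epac2 KD, and its difference of -0.21 ± 0.145 did not pass (edgeR, adjusted p = 0.28). Of 19 amino acid transporters, 9 (47.4%) were lower and 2 (10.5%) higher. Slc38a3, a glutamine transporter, was at 593.8 to 914.1 CPM in PKA KD and 1219 to 1941 in Epac2 KD, a difference of -1.05 ± 0.112 with no overlap. Slc25a22, a mitochondrial glutamate carrier, differed by -1.23 ± 0.113, and Slc3a1, a subunit of the cystine and dibasic amino acid transporter, by -1.38 ± 0.231.

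**Figure D2:**
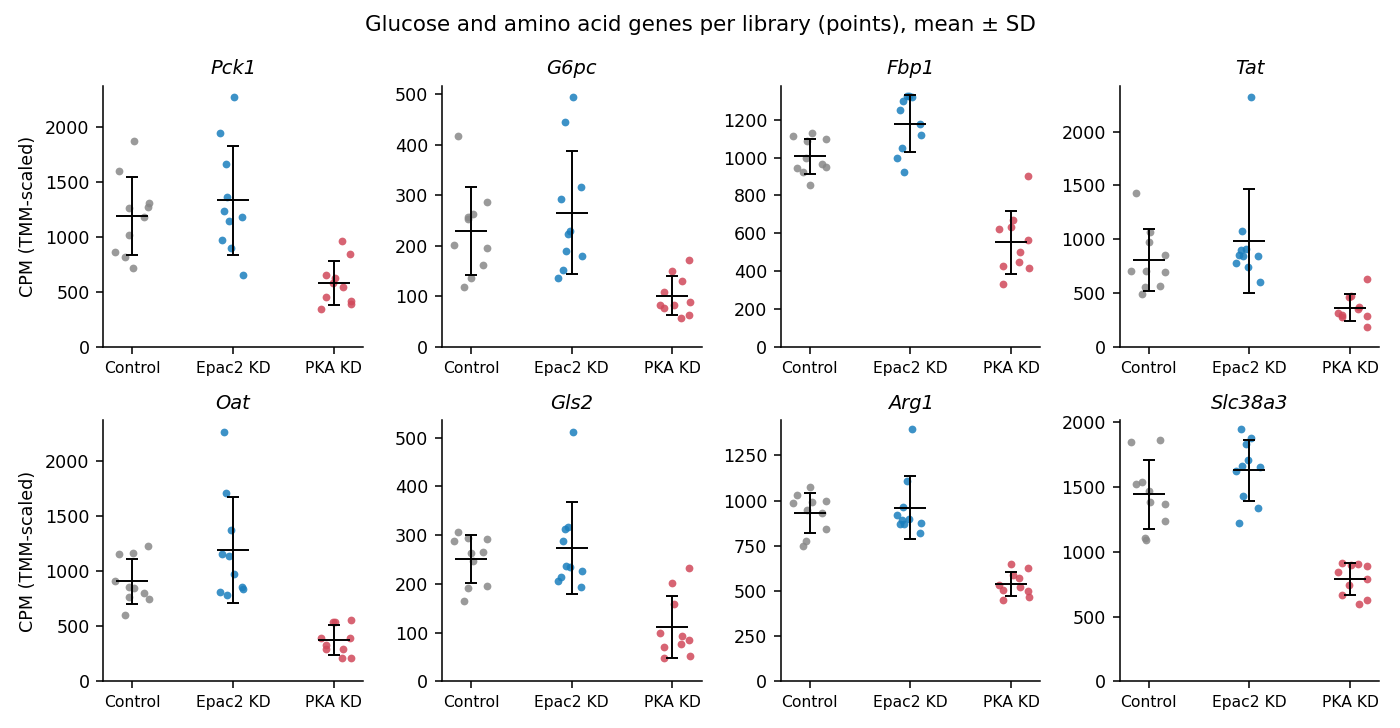
TMM-scaled CPM per library (points) of 8 genes of glucose and amino acid metabolism in Control, Epac2 KD and PKA KD, with mean and SD (bars), n = 10 per group. The PKA KD points are the lowest group in each panel, without overlap with Epac2 KD for Fbp1, Oat, Arg1 and Slc38a3.

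Lipid synthesis was the list with the largest share of lower members. Of 21 lipogenic genes, 18 (85.7%) were lower in PKA KD and 0 higher, beside 17.3% and 18.4% of all tested genes. Their median was -0.95. Against Control, 13 (61.9%) were lower with PKA KD and 2 (9.52%) with Epac2 KD, beside 14.8% and 2.74% of all tested genes. Scd1, stearoyl-CoA desaturase, spanned 72.1 to 12320 CPM (median 1864) in PKA KD and 1868 to 25640 (17790) in Epac2 KD, a difference of -2.30 ± 0.684 (edgeR, adjusted p = 0.00666). Libraries varied widely in both groups: PKA KD replicate 5 was the highest of its group and Epac2 KD replicate 7 the lowest of its own. Without PKA KD replicate 5 the difference was -2.89, and without Epac2 KD replicate 7 it was -2.43. Me1, malic enzyme, was at 120.6 ± 92.0 CPM (SD) in PKA KD and 502.8 ± 254.8 in Epac2 KD, a difference of -2.06 ± 0.378. Pnpla3, a lipid droplet hydrolase induced by feeding, was at 0.0355 to 6.06 CPM (median 0.769) in PKA KD and 0.712 to 20.01 (8.39) in Epac2 KD, a difference of -2.70 ± 0.551 (edgeR, adjusted p = 9.6e-05). Without PKA KD replicate 5 its difference was -3.51. Elovl3, a fatty acid elongase that is not on this list but on that of male-biased genes, differed by -2.64 ± 0.439.

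Lipid droplet genes gave some of the largest falls. Of 19, 8 (42.1%) were lower and 2 (10.5%) higher, beside 17.3% and 18.4% of all tested genes. Plin4, a droplet coat protein, was at 3.38 to 24.9 CPM (median 6.67) in PKA KD, 17.2 to 142.4 (54.6) in Epac2 KD and 38.1 to 146.1 (90.8) in Control, a difference of -3.07 ± 0.46 (edgeR, adjusted p = 5.02e-07). Cidea, which fuses lipid droplets, differed by -3.52 ± 0.643, and was at 0 in 1 PKA KD library, while PKA KD replicate 5 held 9.96 CPM. Without that replicate the difference was -4.44. Cfd, the complement factor adipsin, differed by -3.23 ± 0.585. The adipocyte markers fixed as a list were near 0, with summed levels of 0 to 2.05 CPM in PKA KD and 0 to 4.4 in Epac2 KD. Of 25 cholesterol synthesis genes, 11 (44%) were lower and 1 (4%) higher (Cyp51). Insig1, which restrains sterol synthesis, was at 126.9 to 334.9 CPM in PKA KD and 353.3 to 642.6 in Epac2 KD, a difference of -1.20 ± 0.143 with no overlap.

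Fatty acid oxidation and ketogenesis were lower as well. Of 30 genes, 18 (60%) were lower and 0 higher, beside 17.3% and 18.4% of all tested genes. Their median was -0.41. Phyh, which starts the breakdown of branched fatty acids in peroxisomes, was at 190.9 to 446.8 CPM (median 248.1) in PKA KD, 1496 to 1944 (1657) in Epac2 KD and 1238 to 1738 (1505) in Control. The gap between the groups was wider than the spread within either, and the difference was -2.59 ± 0.117 (edgeR, adjusted p = 6.24e-24). Acaa1b, a peroxisomal thiolase, differed by -1.90 ± 0.231 and Crot, a peroxisomal carnitine acyltransferase, by -1.05 ± 0.0879. Ppara, the nuclear receptor that drives these genes in fasting, was at 192.2 ± 48.0 CPM (SD) in PKA KD, 348.0 ± 72.7 in Epac2 KD and 428.5 ± 76.2 in Control, a difference of -0.86 ± 0.119 (edgeR, adjusted p = 7.41e-08). Cpt1a, which carries fatty acids into mitochondria for oxidation, did not pass, at 0.04. Fgf21, a fasting hormone of the liver and a target of Ppara, was below Control in both knockdowns, by -1.97 with PKA KD (edgeR, adjusted p = 7.12e-05) and by -1.39 with Epac2 KD (edgeR, adjusted p = 0.0228). Between the knockdowns it differed by -0.58 ± 0.393 (edgeR, adjusted p = 0.259), and by -1.14 without PKA KD replicate 5 (edgeR, adjusted p = 0.0119).

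**Figure D3:**
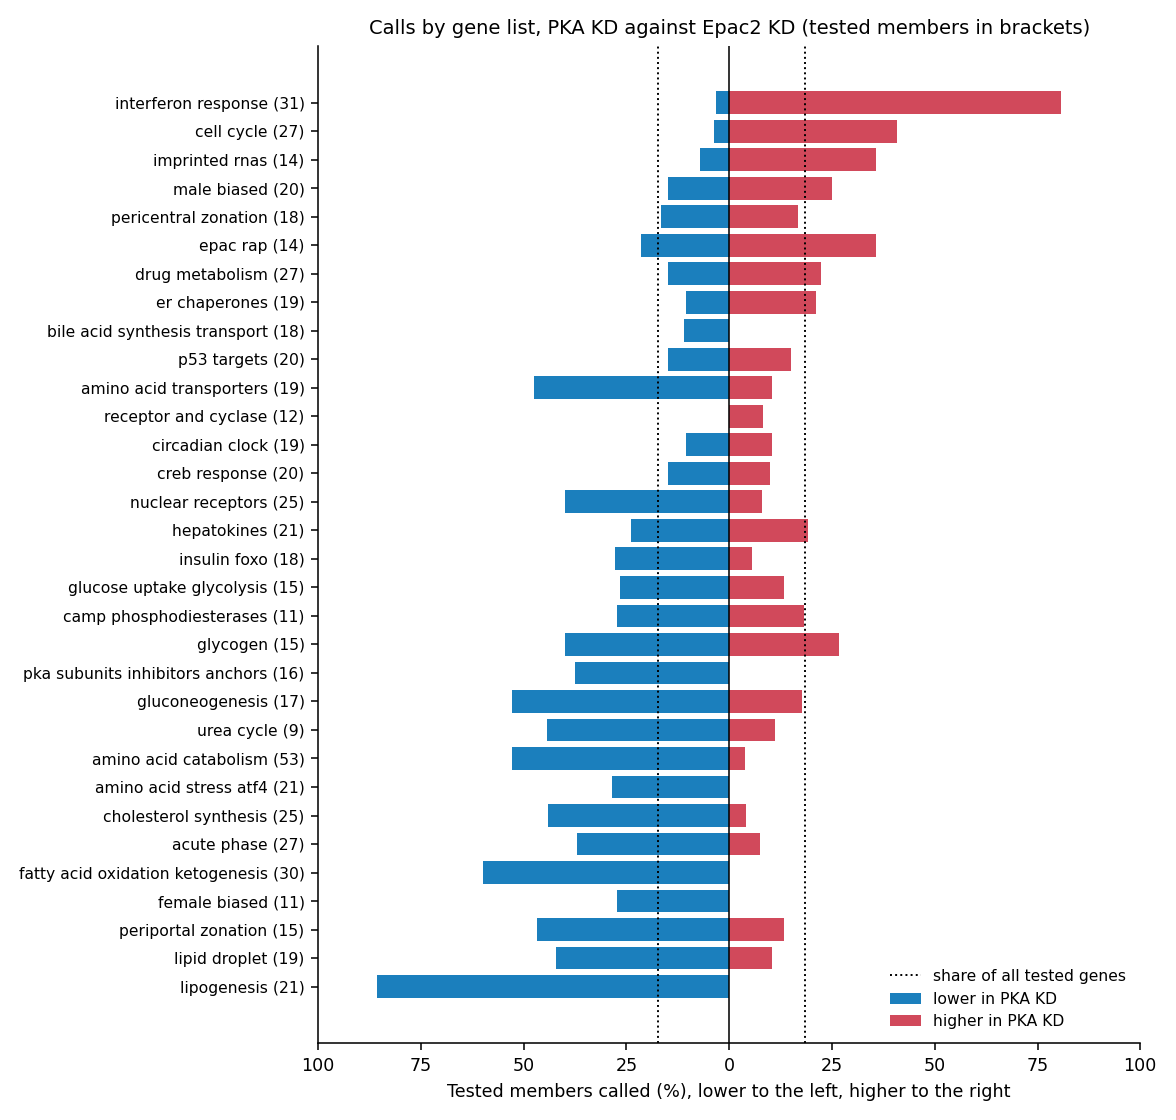
Share of tested members called lower (left) or higher (right) in PKA KD against Epac2 KD for each pathway list, ordered by median log2 fold change, with the number of tested members in brackets and dotted lines at the shares of all tested genes, 17.3% and 18.4%. Lipogenesis has the largest lower share, 85.7%, and the interferon response the largest higher share, 80.6%.

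Interferon-stimulated genes were higher in PKA KD than in Epac2 KD. Of 31 tested, 25 (80.6%) were higher, beside 18.4% of all tested genes, and 1, Stat2, was lower, with a median of 1.03. Against Control, 16 of 31 were higher and 1 lower with PKA KD (median 0.38), and 0 were higher and 11 lower with Epac2 KD (median -0.56), from comparisons that share their controls. Of all tested genes, 17.7% were higher and 14.8% lower with PKA KD, and 1.82% and 2.74% with Epac2 KD. Rsad2, the antiviral enzyme viperin, was at 29.1 to 80.1 CPM (median 43.5) in PKA KD, 6.17 to 15.1 (10.1) in Epac2 KD and 12.4 to 25.4 (17.5) in Control. All PKA KD libraries lay above all Control libraries, and the difference between the knockdowns was 2.27 ± 0.224 (edgeR, adjusted p = 1.63e-11). Ifit1, which binds viral RNA, was at 6.96 to 39.5 CPM (median 19.1) in PKA KD and 4.53 to 9.02 (5.84) in Epac2 KD, a difference of 1.95 ± 0.284 (edgeR, adjusted p = 2.48e-07). The lowest PKA KD library alone reached into the Epac2 KD range. Summed levels of the 12 Kupffer cell markers were 180.9 to 498.0 CPM in PKA KD and 162.7 to 565.7 in Epac2 KD, and 0 of 12 were called. The 9 T and NK cell markers summed to 5.28 to 11.9 and 3.5 to 15.2 CPM, with 1 of 8 tested called, Cd4.

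The interferon element, GAAA and GAAA with any 2 bases between them, read on both strands, was in 15 of 23 interferon genes with a window (65.2%) and in 3.84% of all tested genes with one. Among the 19 members that were higher and had a window, 12 held it. The list was drawn up as interferon targets, so this share describes the list and not the change. The windows of Rsad2 (chr12:26456403-26456702, minus strand) and Ifit1 (chr19:34640639-34640938, plus strand), the members with the largest differences, are shown with the element in capitals, at -120 in Rsad2 and at -104 and -85 in Ifit1.
Rsad2: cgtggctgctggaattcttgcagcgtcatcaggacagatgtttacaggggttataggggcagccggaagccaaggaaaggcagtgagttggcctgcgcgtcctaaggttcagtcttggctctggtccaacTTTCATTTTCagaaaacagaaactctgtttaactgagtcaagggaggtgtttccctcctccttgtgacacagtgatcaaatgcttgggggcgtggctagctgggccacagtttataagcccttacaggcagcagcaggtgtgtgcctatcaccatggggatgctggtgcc
Ifit1: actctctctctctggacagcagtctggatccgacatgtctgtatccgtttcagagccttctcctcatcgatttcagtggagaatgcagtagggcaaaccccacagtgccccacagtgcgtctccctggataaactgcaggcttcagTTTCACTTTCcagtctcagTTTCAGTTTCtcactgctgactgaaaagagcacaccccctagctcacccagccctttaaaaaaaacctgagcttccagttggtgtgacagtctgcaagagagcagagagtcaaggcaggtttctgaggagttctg

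Several imprinted non-coding RNAs, normally silent or scarce in adult liver, were far higher in PKA KD. Of 14 imprinted RNAs tested, 5 (35.7%) were higher (Meg3, Rian, H19, Peg3 and Igf2r) and 1 (7.14%), Mest, lower. Of all tested genes, 18.4% were higher and 17.3% lower. Meg3 was at 4.59 to 114.2 CPM (median 39.3) in PKA KD, 1.07 to 6.12 (1.43) in Epac2 KD and 0.682 to 1.5 (1.01) in Control, a difference of 4.39 ± 0.449 (edgeR, adjusted p = 5.45e-11). The groups met only where the lowest PKA KD library, replicate 5, fell below the highest Epac2 KD library, replicate 10. Rian, from the same cluster on chromosome 12, was at 0.664 to 14.8 CPM in PKA KD and 0.164 to 1.06 in Epac2 KD, a difference of 3.97 ± 0.481. H19 was at 9.23 to 40.7 CPM (median 19.6) in PKA KD and 0.383 to 10.6 (0.775) in Epac2 KD, a difference of 3.08 ± 0.588 (edgeR, adjusted p = 3.7e-05).

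Within the PKA KD group, libraries with more Prkaca mRNA had less of some of these transcripts. Over its 10 libraries, log2 Prkaca and Pde6c, a cone photoreceptor phosphodiesterase, gave Pearson's r = -0.94 (permutation test, p = 0.00022, adjusted over 13 relations 0.00286) and Spearman's rho = -0.88 (permutation test, p = 0.00178). Without replicates 3 and 5, the libraries farthest from the median of Prkaca, r was -0.69 (permutation test, p = 0.0505), so the relation rests in part on them. For Meg3, r was -0.87 (permutation test, p = 0.00126, adjusted 0.00819) and rho -0.77 (permutation test, p = 0.0129), and r was -0.82 without those libraries (permutation test, p = 0.0113). For Ly6c1, a surface antigen, r was -0.86 (permutation test, p = 0.00246, adjusted 0.0107) and rho -0.67 (permutation test, p = 0.0398), and r was -0.37 without them (permutation test, p = 0.377), so that this relation rests on those 2 libraries. Of the adjusted p-values for rho, only that of Pde6c, 0.0231, passed. The other 4 relations with Prkaca, to Prkacb, Mup18, Mup9 and Cidea, and all 6 with Rapgef4 in Epac2 KD, did not pass the adjusted test for r.

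**Figure D4:**
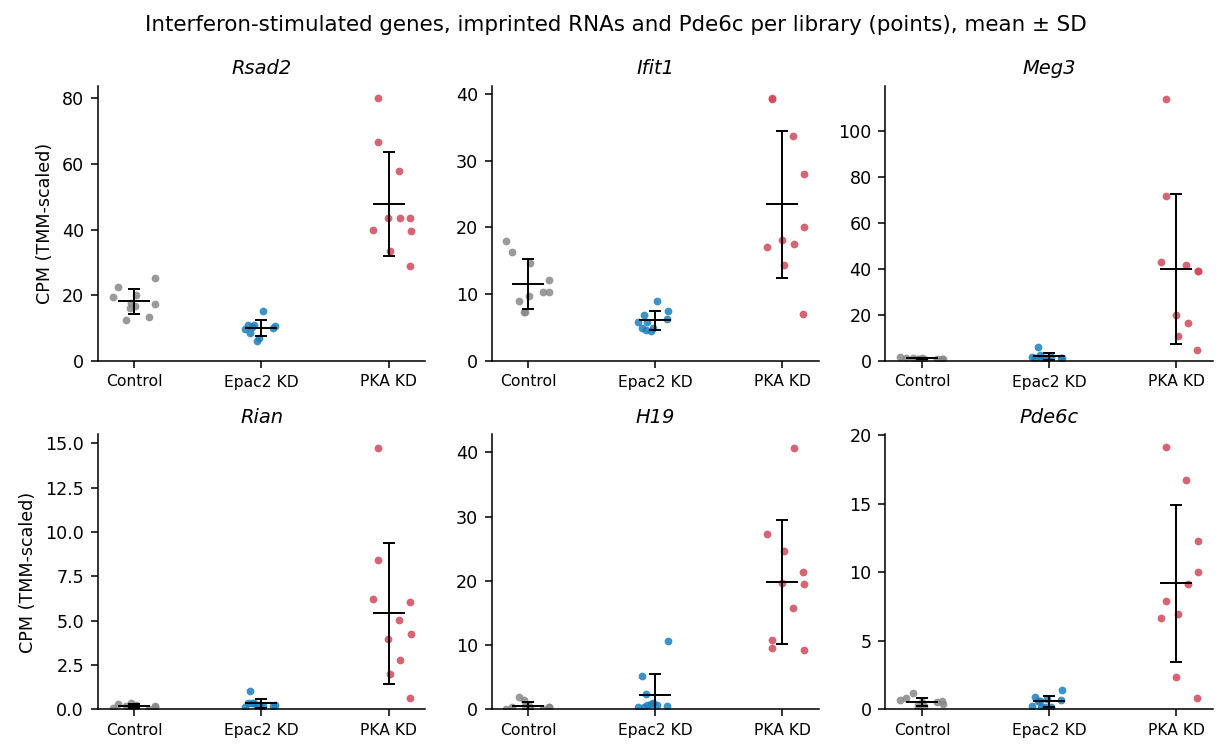
TMM-scaled CPM per library (points) of 2 interferon-stimulated genes, 3 imprinted RNAs and Pde6c in Control, Epac2 KD and PKA KD, with mean and SD (bars), n = 10 per group. PKA KD is the highest and most spread group in each panel, and the Epac2 KD points of Rsad2 and Ifit1 lie mostly below Control.

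Ly6c1 was at 4.1 to 20.7 CPM (median 12.03) in PKA KD and 0.11 to 1.16 (0.494) in Epac2 KD, a difference of 4.60 ± 0.348, the largest rise by the naming rule. Ly6a, a neighbour of that family, differed by 2.64 ± 0.248, and reads of such similar genes may be shared. Pls1, an actin bundler of microvilli, was at 30.7 to 53.04 CPM in PKA KD and 0.557 to 7.86 in Epac2 KD, a difference of 3.57 ± 0.412 with no overlap. Pde6c was at 0.808 to 19.1 CPM (median 8.52) in PKA KD and 0.173 to 1.45 (0.611) in Epac2 KD, a difference of 3.92 ± 0.453. Among the falls, Cyb5r3, cytochrome b5 reductase, was at 89.0 to 233.3 CPM in PKA KD and 571.5 to 1247 in Epac2 KD, a difference of -2.88 ± 0.14 with no overlap. Prg4, the secreted lubricin, was at 13.9 to 76.6 CPM in PKA KD and 114.2 to 543.8 in Epac2 KD, a difference of -2.79 ± 0.266, again with no overlap.

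The difference between the groups also held genes that moved away from Control with Epac2 KD. Rec8, a meiotic cohesin subunit, was at 5.3 to 11 CPM in PKA KD, 0.302 to 1.24 in Epac2 KD and 1.51 to 3.8 in Control, with no overlap between any pair of these groups. It was higher than Control in PKA KD, by 1.71, and lower in Epac2 KD, by -1.63, for a difference of 3.34 ± 0.214 (edgeR, adjusted p = 5.15e-18). Cept1, which makes phosphatidylcholine and phosphatidylethanolamine, was at 29.6 to 55.0 CPM in PKA KD, 9.17 to 14.7 in Epac2 KD and 23.5 to 40.4 in Control, a difference of 1.98 ± 0.0962. Ddah1, which degrades methylated arginines, was at 110.5 to 193.7 CPM in PKA KD and 20.4 to 74.3 in Epac2 KD, a difference of 1.44 ± 0.133. Its level in PKA KD differed from Control by -0.11, which did not pass (edgeR, adjusted p = 0.565). Snhg11, a non-coding host transcript of small nucleolar RNAs, was above Control in both, by 2.52 in PKA KD and 1.27 in Epac2 KD. The knockdowns still differed in it by 1.25 ± 0.197 (edgeR, adjusted p = 1.28e-06).

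Of 20 male-biased genes, 5 (25%) were higher and 3 (15%) lower in PKA KD, beside 18.4% and 17.3% of all tested genes. Elovl3, given above, was among the lower ones. Of 11 female-biased genes tested, 0 were higher and 3 (27.3%) lower (Hao2, Cyp2b13 and Cyp17a1), with a median of -0.47. Cyp4a12a, a male-biased cytochrome P450, was at 309.2 to 732.8 CPM in PKA KD and 73.9 to 243.8 in Epac2 KD, a difference of 1.86 ± 0.249 with no overlap, and its near copy Cyp4a12b stood at 1.82. Mup21 was higher, at 2.12 ± 0.409, while Mup9 was lower, at -3.96 ± 0.833, and Mup18 lower, at -5.86 ± 1.51. Mup9 was at 2.57 to 14.2 CPM in PKA KD and 0.52 to 93.6 in Control. Epac2 KD replicates 3, 7 and 10 held 286.9, 422.4 and 243.7 CPM of it, and the other Epac2 KD libraries 4.96 to 55.6, so the difference rests largely on those replicates. Mup genes are near copies of each other and reads may be split between them. Mup18 had 0 counts in 6 PKA KD libraries and 264.6 CPM in Epac2 KD replicate 7. Without that replicate its difference was -3.18 and did not pass (edgeR, adjusted p = 0.0614). Of 27 acute phase genes, 10 (37.0%) were lower and 2 (7.41%) higher, and without that replicate 6 and 5. Saa1 and Saa2, serum amyloid genes, differed by -2.11 ± 0.786 and -2.83 ± 0.837, but by 0.16 and -0.16 without it, where neither passed (edgeR, adjusted p = 0.875 and 0.873), and both calls were also lost with DESeq2 on all libraries (adjusted p = 0.864 and 0.746). Of 27 cell cycle genes, 11 (40.7%) were higher and 1 (3.7%) lower, and 4 were higher without PKA KD replicate 3 and 3 without replicate 5.

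Glycogen genes were split, with 4 of 15 (26.7%) higher and 6 (40%) lower, beside 18.4% and 17.3% of all tested genes. With only the 2 groups in the fit, 3 were lower. Ugp2, which makes UDP-glucose for glycogen, differed by -1.36 ± 0.117. Ppp1r3g, a glycogen-targeting phosphatase subunit induced by feeding, had 35 counts over the PKA KD libraries and 350 over the Epac2 KD libraries. Nuclear receptors were lower for 10 of 25 (40%) and higher for 2 (8%). The ATF4 stress genes were lower for 6 of 21 (28.6%) and higher for 0. Periportal genes were lower for 7 of 15 (46.7%) and higher for 2 (13.3%). The lower ones include Pck1, Gls2, Sds, Hal, Arg1 and Ass1, already counted in the metabolic lists above, so this share is not a separate result. Pericentral genes (3 higher and 3 lower of 18), p53 targets (3 and 3 of 20), clock genes (2 and 2 of 19) and bile acid genes (0 and 2 of 18) had shares near or below those of all tested genes.

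Cell type markers are set beside the 18.4% of all tested genes that were higher and the 17.3% that were lower. Of 10 hepatocyte markers, 2 (20%) were higher in PKA KD (Cyp2e1 at 0.59 and Apoa1 at 0.37). Another 3 (30%) were lower, Tat at -1.43, Fgb at -0.50 and Hnf4a at -0.32, and the median of the 10 markers was 0.02. They summed to 104700 to 136800 CPM in PKA KD and 97870 to 150800 in Epac2 KD and none was at 0 in a whole group. Of 12 stellate cell markers 0 were called, and of 12 endothelial markers 3 (25%) were lower: Lyve1, Oit3 and Stab1. Fgb lost its call without Epac2 KD replicate 7 (edgeR, adjusted p = 0.134), and Stab1 without that library and PKA KD replicates 3 and 5 (edgeR, adjusted p = 0.136). Of 6 tested erythroid markers 1, Hbb-bs, was lower. Of 6 tested cholangiocyte markers 1, Muc1, was higher, with sums over 8 markers of 38.8 to 315.8 CPM in PKA KD and 34.9 to 161.8 in Epac2 KD. In bulk tissue, fewer cells of a type and less RNA per cell cannot be told apart. The part of these markers in the differences above was not tested.

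Prkar1a knockdown removes a brake on PKA, and its effect in experiment 2 is given beside the same genes. Under the control antibody, Prkar1a was lower in Prkar1a KD by -1.94 ± 0.0578, and 56.2% of 12847 genes were called, 29.3% higher and 26.9% lower. Several named genes of glucose and amino acid metabolism that were lower in PKA KD than in Epac2 KD were higher with Prkar1a KD: Pck1 by 2.55 ± 0.188, Tat by 2.53 ± 0.129, Gls2 by 2.04 ± 0.104, G6pc by 1.53 ± 0.246, Oat by 1.38 ± 0.208 and Arg1 by 0.77 ± 0.0821. The phosphodiesterase Pde4b was higher by 0.9996 ± 0.135. The lipid genes named here were lower in both comparisons, with Scd1 at -3.67 ± 0.477, Plin4 at -2.06 ± 0.276, Insig1 at -1.48 ± 0.209 and Ppara at -1.06 ± 0.117 in Prkar1a KD. Interferon genes and the Meg3 cluster were higher in both, with Rsad2 at 2.74 ± 0.323, Ifit1 at 2.26 ± 0.277, Meg3 at 4.88 ± 0.344 and Rian at 5.68 ± 0.275 in Prkar1a KD. All of these passed the test in experiment 2 (edgeR, each adjusted p under 0.05). By list, 7 of 17 gluconeogenic genes were higher with Prkar1a KD and 8 lower (median -0.09), 27 of 53 amino acid catabolism genes were higher and 13 lower, 0 of 21 lipogenic genes higher and 15 lower, and 31 of 31 interferon genes higher. Of 10 hepatocyte markers 7 were lower and 2 higher there, and of 4 tested erythroid markers 4 were lower; their part in these differences was not tested. H19 and Ly6c1, by contrast, were at -0.25 ± 1.16 and 0.22 ± 0.394 and did not pass, Pde6c was lower by -4.39 ± 0.64, and Cyp4a12a was lower by -2.33 ± 0.526. Cps1, not called between the knockdowns, was higher with Prkar1a KD by 1.39 ± 0.14. Across the 12746 genes in both fits the fold changes had a Pearson correlation of 0.056 and a Spearman correlation of -0.005, over genes that are not independent. Of the 2325 genes lower in PKA KD that were also in the second fit, 30.2% were higher and 31.4% lower with Prkar1a KD, beside 29.2% and 27.1% of all genes in both fits.

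**Figure D5:**
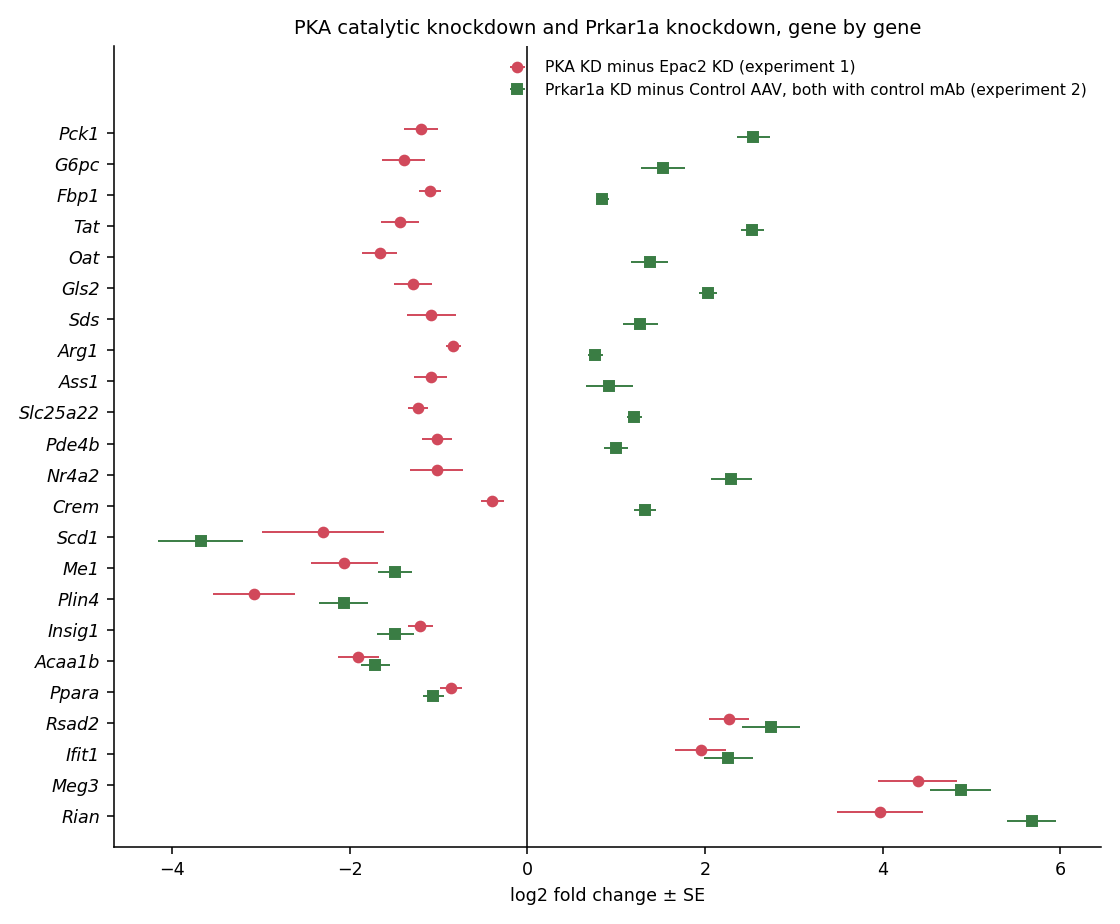
Log2 fold change ± SE of 23 genes for PKA KD minus Epac2 KD (circles, n = 10 per group) and for Prkar1a KD minus Control AAV under the control antibody (squares, n = 10 per group). From Pck1 to Crem the signs are opposite, from Scd1 to Ppara both are below 0, and from Rsad2 to Rian both are above 0.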

How the data were processed

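Per the labels' protocols, total RNA was taken from liver, mRNA was bead-purified and strand-specific libraries were made with PCR amplification. Per the submitters' processing notes, bcl2fastq 2.17 and FastQC were used with the build GRCm38. The authors deposited expected counts per Entrez gene and sample, 1 table per experiment, per the file headers. Which aligner and counter made them, and how strand and multi-mapped reads were handled, is not given in the sources used here. Of 24475 genes, 24375 matched a symbol in the RefSeq gene table. In experiment 1, 8.69% of entries had a fractional part and were rounded. Groups came from the labels.

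edgeR 4.0.16 (R 4.3.3) was fitted over all 50 libraries of experiment 1 (filterByExpr, TMM, robust quasi-likelihood F test, Benjamini-Hochberg adjustment over all tested genes), and separately over experiment 2 (8.9 to 19.5 M counts). SE is the absolute fold change divided by the square root of F. Genes were called at an adjusted p under 0.05. Permutation tests drew 100000 resamples. Any 2 libraries of a group differed by more than sampling noise (lowest chi-squared per degree of freedom 21.36). The members, the 32 pathway and 11 cell type lists, and the tests were chosen with earlier results of these data known. Named genes were 7 pathway genes, 13 metabolic genes, the 12 largest changes per direction (average log2 CPM of at least 1 with 9 or more of 10 libraries beyond the median of the other group), up to 3 members per list and direction, and the 6 largest Epac2 KD changes per direction. Gene names given only as called list members, and Cpt1a, Stat2 and Cyp51, were added after their values were seen, as was the interferon element. The script was tested on simulated counts. Alternatives were RLE scaling, no filter, DESeq2 1.42.0, limma-voom (limma 3.58.1), only the 2 groups compared and a replicate block.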

Additional observations from a re-analysis of the deposited data

Results flagged for a closer look

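In 64 genes whose values are given by library, the highest and lowest of the 10 libraries of PKA KD and of Epac2 KD were examined. This was done on the log2 CPM scale, for 128 groups of values in all. In them 12 values, several from the same library, stood apart from the nearest other by more than Dixon's limit, where chance gives about 1 in 20 groups. In PKA KD, replicate 5 was apart for Fgf21 (3.24, high), Cept1 (4.89, low) and Slc25a22 (7.18, high), and replicate 2 for Cfd (2.165, high). Replicate 5 is also the library with the most Prkaca mRNA. In Epac2 KD, replicate 7 was apart for Ddah1 (4.36, low), Prg4 (9.09, high) and Mup18 (8.05, high), replicate 2 for Tat (11.18, high) and Gls2 (9.001, high), replicate 10 for Meg3 (2.63, high) and Rian (0.19, high), and replicate 5 for Gnas (8.81, high). What sets these libraries apart was not tested.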

How the results depend on the processing

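Between PKA KD and Epac2 KD, the genes called higher numbered 2056 to 2580 and those called lower 2014 to 2476 under RLE scaling, no filter, DESeq2, limma-voom, only the 2 groups, and without PKA KD replicates 3 and 5 and Epac2 KD replicate 7, singly or together (libraries chosen after seeing the data, left out for this comparison only). An adjusted p under 0.01 left 1770 higher and 1700 lower. Asking for at least 1.5-fold left 904 higher and 560 lower. No gene was called in opposite directions by any of these fits. The lower counts of lipogenesis stayed at 16 to 19, of amino acid catabolism at 26 to 29 and of gluconeogenesis at 8 to 9, and the higher count of interferon genes at 25 to 27. Cell cycle genes higher fell from 11 to 3 with limma-voom and to 4 with only the 2 groups; the cause was not tested. Saa1 turned from -2.11 to 0.12 with DESeq2, which replaces counts it takes as outliers, and to 0.16 without Epac2 KD replicate 7, and was -2.66 without PKA KD replicate 3. Leaving out the 2 libraries farthest from the median weakened r of Prkaca with Ly6c1 to -0.37 and with Pde6c to -0.69, and raised r of Rapgef4 with Cidea in Epac2 KD from 0.11 to 0.73 (permutation test, p = 0.0314, unadjusted); the cause was not tested. The share of mitochondrial ribosomal RNA differed by -0.118 percentage points, and by -0.141 with mitochondrial mRNAs out of the total.

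Replicate numbers are shared between the groups, but same-numbered libraries deviated together little (correlations from -0.281 to 0.198, over 0.1 in 3 of 10 pairs, and 1 PKA KD library correlated best with its own number). With a replicate block, 2506 genes were higher and 2423 lower between the knockdowns, 2403 and 2078 for PKA KD against Control, 256 and 383 for Epac2 KD against Control, and 3778 and 3434 for Prkar1a KD. Of 178 named genes, 18 lost their call and 1 gained one without the 3 libraries, 17 of the 174 that fit tested lost it with only the 2 groups, and of the 178, 11 with limma-voom and 0 with RLE scaling. Saa1 and Saa2 lost their calls under the block, limma-voom and only the 2 groups, and 4 cell cycle genes were higher. Low levels limit Nr4a2, Ppp1r3g, Rapgef3 and Mup18.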

Other observations

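Some genes were above Control with Epac2 KD and also called between the knockdowns. Hamp2, a hepcidin gene, was at 123.0 CPM in Epac2 KD, 43.7 in PKA KD and 26.8 in Control, and its difference between the knockdowns was -1.49 (edgeR, adjusted p = 0.00364). Fabp5, an epidermal fatty acid binding protein, was at 23.2, 8.29 and 7.46 CPM in the same order, a difference of -1.48 (edgeR, adjusted p = 0.00088). Sult2a7, a sulfotransferase with near copies, was at 3.23 CPM in Epac2 KD, 14.2 in PKA KD and 0.682 in Control. Fam81a was likewise above Control in both, by 1.36 in Epac2 KD and 2.51 in PKA KD. Plekhb2 was lower in Epac2 KD than in PKA KD and Control, at 8.08 CPM against 17.2 and 18.2, with no overlap between the knockdowns.

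Vldlr, a lipoprotein receptor, was at 2.14 CPM in PKA KD and 7.5 in Epac2 KD, a difference of -1.81 (edgeR, adjusted p = 0.000666). Apcs, serum amyloid P, was higher in PKA KD, at 105.1 CPM against 41.9, a difference of 1.33 (edgeR, adjusted p = 0.000167). Epac2 KD replicate 7 held 172.2 CPM, and without it the difference was 1.94 (edgeR, adjusted p = 5.18e-11). Ccne2, a cyclin of the start of DNA replication, was at 1.47 CPM in PKA KD and 0.382 in Epac2 KD, with no overlap.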
